A study of Homo sapiens with 9 samples.

Results

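BAAT and NNMT are enzymes that attach a small group to a metabolite, and their RNA levels were followed across 3 culture conditions of A549, a widely used line of human lung adenocarcinoma cells. The members were the probe sets (groups of array probes summarised as 1 value) that the platform annotation names BAAT or NNMT. There were 3 of them, 1 for BAAT and 2 for NNMT, among 53617 probe sets on the array, 16098 of which carried a gene name here (2 genes of 14884). The cells were kept for 5 days in DMEM with fetal bovine serum. They grew on low-attachment plates with FP001, an additive at 0.015% (w/v), or on low-attachment plates in normal medium, or on ordinary attachment plates in normal medium. Normal medium had purified water added in place of FP001. The labels do not say what FP001 is. Each condition had 3 arrays, and the array of attachment replicate 1 was left out by the rule that defined the members, so attachment plates were represented by 2 arrays.

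BAAT (bile acid-CoA:amino acid N-acyltransferase) transfers an activated bile acid to glycine or taurine, the last step in making conjugated bile salts, and is known as a liver enzyme. NNMT (nicotinamide N-methyltransferase) moves a methyl group from S-adenosylmethionine to nicotinamide, which gives 1-methylnicotinamide and takes nicotinamide away from NAD salvage. NNMT is abundant in liver and fat tissue and is known to be raised in several carcinomas.

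The members had been chosen with their values in all 3 conditions known, so those values are a description and carry no test. All 3 probe sets read highest on attachment plates, lower on low-attachment plates and lowest with FP001. In the RNA of a whole culture, fewer cells that express a gene and less of its RNA per cell cannot be told apart. The median intensity of the 8 arrays used lay between 23.3 and 24.1, their rank correlations with each other between 0.961 and 0.985, and none of the 3 probe sets read below the median of its array on any of the 8. The left-out array had a median of 15.8 and a highest rank correlation of −0.0019 with any other array.

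The BAAT probe set (17096623) read 240.5, 164 and 152 on FP001 replicates 1, 2 and 3. It read 309.8, 204 and 169 on the low-attachment replicates in normal medium, and 786 and 575 on attachment replicates 2 and 3. Every low-attachment array, with or without FP001, was thus below both attachment arrays, while the ranges with and without FP001 overlapped. Replicate 1 was the highest of its group in both low-attachment conditions. The mean intensity, taken on the log2 scale and turned back, was 182 with FP001, 220.3 on low-attachment plates and 673 on attachment plates. The spread between replicates was 0.35, 0.45 and 0.32 in the same order (SD of log2 intensity, n = 3, 3 and 2).

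NNMT was read by a main probe set (16731461), which stood for the gene in all comparisons, and by a second one (16744572). The main probe set read 61.5, 51.8 and 46.8 on the FP001 arrays. It read 75.2, 78.0 and 79.2 on the low-attachment arrays, and 276 and 203 on the attachment arrays. No array of one condition fell within the range of another. The low-attachment arrays were close together (SD of log2 intensity 0.039), against 0.20 with FP001 and 0.31 on attachment plates. The second probe set read 45.4, 44.9 and 38.9 with FP001, against 56.1, 55.3 and 62.3 on low-attachment plates and 155 and 131 on attachment plates. It also had no overlap between any conditions, and its SDs were 0.12, 0.094 and 0.17. How many of all genes show such separation, or stand highest on both attachment arrays as BAAT does, was not counted. The separation is therefore a description.

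**Figure D1:**
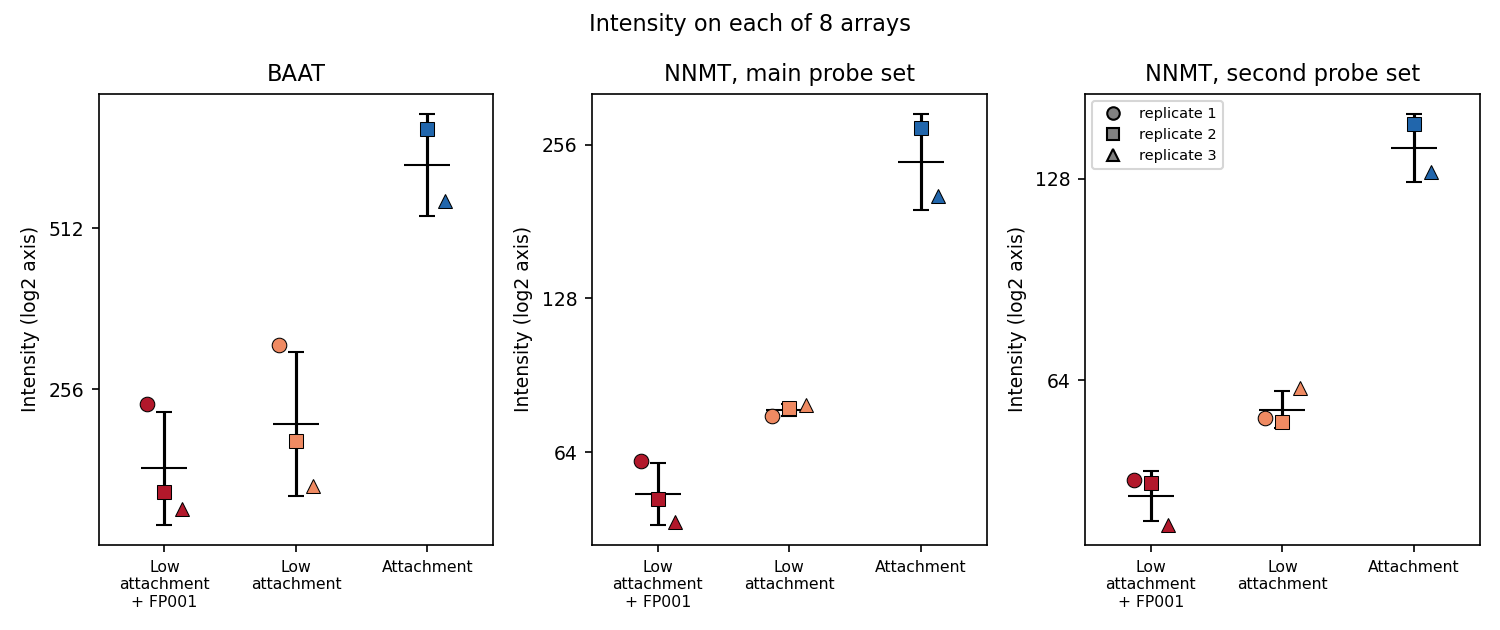
Intensity (log2 axis) of the BAAT probe set and the 2 NNMT probe sets on each of 8 arrays, by condition; symbols mark the replicate number, and lines and bars give the mean and SD of log2 intensity. Both attachment arrays lie above all low-attachment arrays in each panel, and the FP001 arrays lie below the other low-attachment arrays for NNMT but overlap them for BAAT.

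With FP001 on low-attachment plates, BAAT was 3.70-fold lower than on attachment plates (log2 difference −1.89 ± 0.25, SE from limma). The NNMT main probe set was 4.47-fold lower (−2.16 ± 0.15) and the second 3.32-fold lower (−1.73 ± 0.12). By size, NNMT had rank 6 and BAAT rank 8 from the largest decrease in that comparison, in which 11.4% of the 10916 genes tested were called lower and 8.08% higher (35.1% had an unadjusted p under 0.05). In normal medium the low-attachment plates gave nearly equal differences for both genes, a 3.05-fold lower level for BAAT (−1.61 ± 0.25) and a 3.06-fold lower level for the NNMT main probe set (−1.61 ± 0.15). The second NNMT probe set was 2.46-fold lower there (−1.30 ± 0.12), and 5.76% of genes were called lower and 4.31% higher in that comparison (26.4% had an unadjusted p under 0.05). Both comparisons use the same 2 attachment arrays, so a high or low reading on those arrays enters both values.

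Between FP001 and normal medium on low-attachment plates the 2 genes were further apart. The NNMT main probe set was 1.46-fold lower with FP001 (−0.55 ± 0.13), and the second was 1.35-fold lower (−0.43 ± 0.11). For BAAT the difference was −0.28 ± 0.23. In this comparison 0.0733% of genes were called lower and 0.0366% higher, 0.11% in all. By size, NNMT had rank 76 and BAAT rank 608 from the largest decrease. Arrays of the same replicate number were found to vary together in these 2 conditions. The labels do not give this pairing, which was taken from these same arrays. Within numbers 1, 2 and 3, BAAT with FP001 stood at 0.776, 0.804 and 0.903 of its low-attachment value, so it was lower in each pair although the unpaired ranges overlapped. The ratio was 0.818, 0.664 and 0.590 for the NNMT main probe set and 0.809, 0.812 and 0.624 for the second. With the replicate number as a block, the SE of the BAAT difference fell to 0.082 at the same size, and that of the NNMT main probe set was 0.11. These SEs rest on the pairing read from the same arrays, so they and the ratios are a description. How many of all genes were lower in every pair was not counted.

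**Figure D2:**
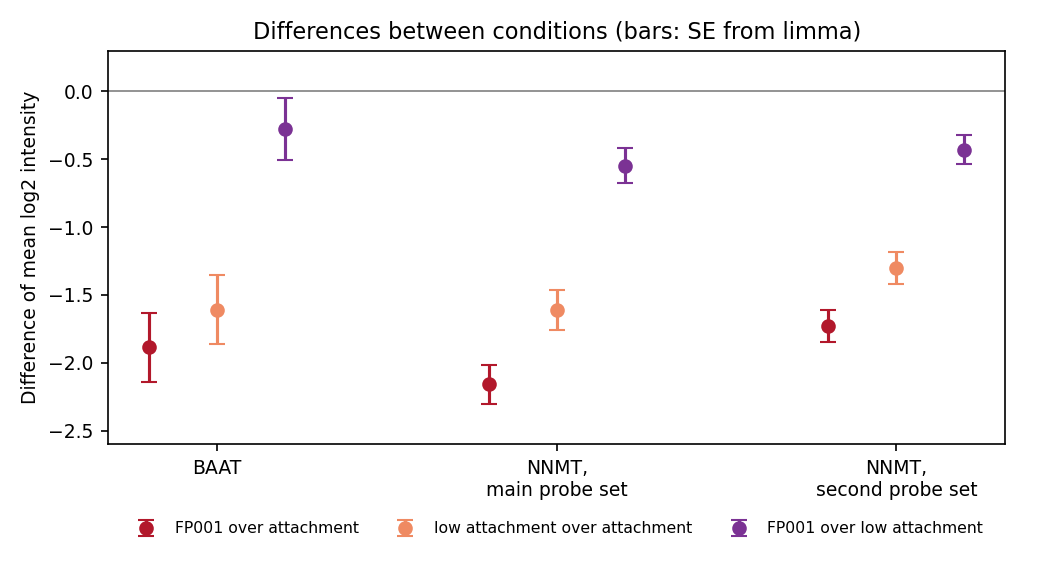
Differences of mean log2 intensity (points) with SE from limma (bars) for BAAT and the 2 NNMT probe sets in 3 comparisons. The differences from attachment plates lie between −1.30 and −2.16, and those between FP001 and normal medium on low-attachment plates between −0.28 and −0.55.

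The 2 NNMT probe sets moved the same way in every comparison but not by the same amount. The log2 distance between them was 0.44, 0.21 and 0.27 on the FP001 arrays, 0.42, 0.50 and 0.35 on the low-attachment arrays, and 0.83 and 0.63 on the attachment arrays. The main probe set thus showed the larger difference between plates. Of the 20 named probe sets nearest to it in identifier order, all were named for genes of chromosome 11, and of the 13 with a known strand 11 were named for plus-strand genes and 2 for minus-strand ones. For the second probe set, all 20 were also of chromosome 11, but all 14 with a known strand were on the minus strand. The platform table gives no position or strand for either probe set, so which strand the second one reads is not settled here.

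BAAT lies on chromosome 9 (101360417 to 101385006) and NNMT on chromosome 11 (114257806 to 114313536) in the RefSeq annotation of GRCh38.p14, so they share no neighbourhood. RefSeq gave 2 promoter windows for BAAT, whose starts lie 309 bases apart on the minus strand. They are shown as the start sites of BAAT that the table gives. Both lie inside the annotated span of the gene, and neither holds its outermost 5′ end. The windows run from 250 bases before to 50 bases after each start, at chr9:101383824-101384123 and chr9:101383515-101383814. Capitals mark the match to the TATA motif.
Upstream BAAT start: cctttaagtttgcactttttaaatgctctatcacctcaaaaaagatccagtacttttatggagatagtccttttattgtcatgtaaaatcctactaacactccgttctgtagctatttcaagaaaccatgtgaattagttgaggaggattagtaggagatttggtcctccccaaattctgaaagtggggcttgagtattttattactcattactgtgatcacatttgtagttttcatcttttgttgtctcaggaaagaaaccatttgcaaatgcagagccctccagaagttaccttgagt
Downstream BAAT start: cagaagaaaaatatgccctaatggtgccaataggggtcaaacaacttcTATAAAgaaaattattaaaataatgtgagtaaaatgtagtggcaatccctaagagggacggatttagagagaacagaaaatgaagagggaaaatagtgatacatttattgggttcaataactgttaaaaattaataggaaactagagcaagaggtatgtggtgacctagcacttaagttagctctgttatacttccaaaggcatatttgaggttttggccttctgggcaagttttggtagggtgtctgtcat

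Both windows are poor in G and C (36.7% and 36.3%, against a median of 58.7% over 35116 RefSeq windows of the same length). On both strands they were searched for TGANTCA (AP-1), TTCNNNGAA (STAT factors), GCGTGGGCG (EGR1) and TATAAA (the TATA box). Of these, the single match was TATAAA in the downstream window, at position −202 from the start, and 11.5% of all windows hold these letters. The other motifs named here occur in 7.71%, 7.66% and 0.795% of all windows, and their letters are not in these 2.

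The genes whose profiles over the 8 arrays were nearest to BAAT were found from the root mean square distance between log2 profiles, each taken around its own mean. The nearest of 10915 genes was DCDC2, which encodes a doublecortin-domain protein of microtubules and cilia, at a distance of 0.16. It was followed by the kinase gene ALPK2 (0.25), the receptor gene GFRA1 (0.28), the hyaluronan synthase gene HAS2 and NNMT itself (0.29 each). From NNMT, the nearest were TNS4, a tensin of focal adhesions (0.27), HAS2 and DCDC2 (0.28 each), BAAT (0.29) and FOS, a component of AP-1 (0.31). NNMT thus had rank 5 from BAAT, and BAAT had rank 4 from NNMT. DCDC2 read 196, 147 and 151 with FP001, against 229, 178 and 156 on low-attachment plates and 554 and 441 on attachment plates. Like BAAT, it was highest on replicate 1 of both low-attachment groups. These genes were picked for their values on these arrays, so the likeness is a description.

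**Figure D3:**
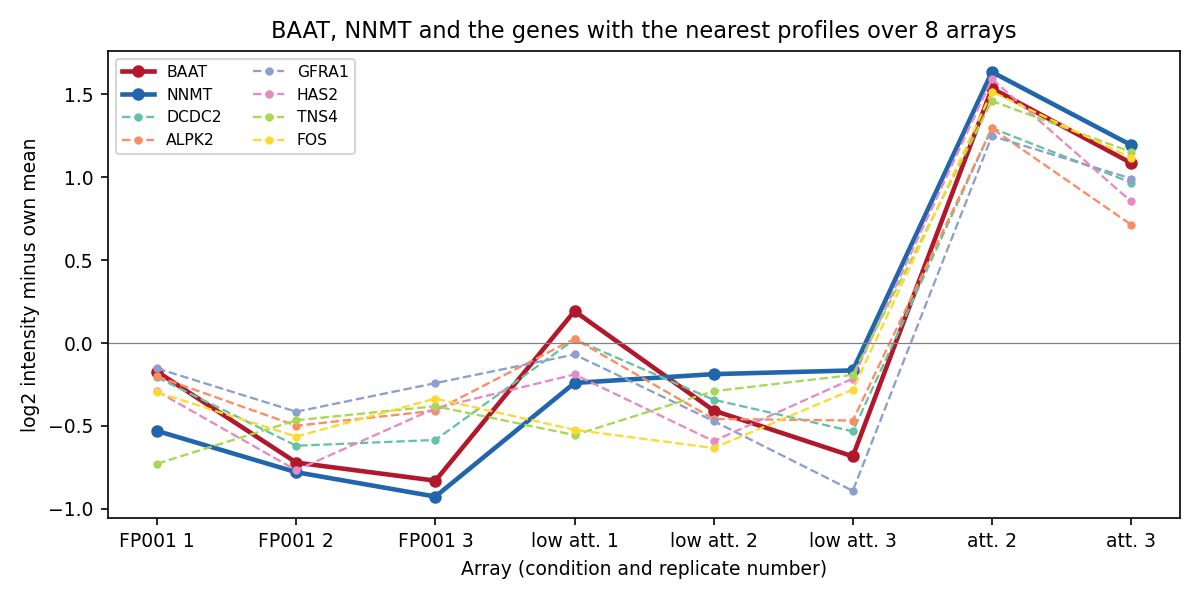
Log2 intensity on each of 8 arrays, minus the gene's own mean, for BAAT and NNMT (thick lines) and the genes nearest to either in profile (thin dashed lines). All stand above 0 on both attachment arrays, and BAAT, DCDC2, ALPK2, GFRA1 and HAS2 are higher on low-attachment replicate 1 than on the 2 other arrays of that condition.

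The surroundings of the 2 enzymes were read from 11 gene lists with 191 genes. Of these 79 were not named on the array here, 19 were too dim to test and 93 were tested. With FP001 against attachment plates, 10 rose and 14 fell, or 25.8%, against 19.5% of all genes tested. On low-attachment plates in normal medium, 7 rose and 11 fell, or 19.4%, against 10.1%. The lists were chosen with earlier results of these data known, so these shares are a description. Of the calls, 7 with FP001 and 6 in normal medium were in 1 list, that of IL-6 and STAT3 signalling. Beside each list and marker count below stand the shares over all genes tested. These are 8.08% called higher and 11.4% lower with FP001, and 4.31% and 5.76% in normal medium. Calls are at an adjusted p under 0.05 (limma, Benjamini-Hochberg over 10916 genes). With 2 attachment arrays, the calls against attachment depend on each of them: 24 genes were called with FP001, 8 without attachment replicate 2, 11 without attachment replicate 3 and 15 without FP001 replicate 1, and the 18 calls in normal medium became 5 without either attachment array.

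The list around NNMT with the most falls was that of the IL-6 cytokine family and STAT3 signalling, listed because STAT3 is known to activate NNMT in cancer cells. The oncostatin M receptor OSMR read 295, 353 and 351 with FP001, against 393, 390.4 and 451 on low-attachment plates and 740.4 and 581 on attachment plates. All low-attachment arrays, with or without FP001, lay below both attachment arrays. OSMR fell 1.98-fold with FP001 (log2 difference −0.98 ± 0.13, adjusted p = 0.000854), and BCL3, a nuclear cofactor of NF-kappaB known as a STAT3 target, fell 1.88-fold (−0.91 ± 0.10, adjusted p = 0.000491). Both calls held whichever single array was left out. The kinase gene JAK2 fell 1.80-fold (adjusted p = 0.00537, and 0.0629 without attachment replicate 2) and the cytokine gene LIF 1.67-fold (adjusted p = 0.0077, and 0.0612 without attachment replicate 3).

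In all, 7 of 11 tested genes of that list fell with FP001 and 0 rose, with a median log2 difference of −0.55, against 11.4% of all genes called lower and a median of 0.018. The other 3, named after their values were seen, were SOCS3, JAK1 and STAT3 itself. STAT3 read 961, 816 and 881 with FP001, against 1164, 955 and 933 on low-attachment plates and 1430.1 and 1168 on attachment plates, a 1.46-fold fall with FP001 (adjusted p = 0.0122, and 0.128 without attachment replicate 2). SOCS3, a feedback inhibitor of the pathway, fell by 0.58 on the log2 scale (adjusted p = 0.00856, and 0.0664 without attachment replicate 3), and the kinase gene JAK1 fell 1.47-fold (adjusted p = 0.0119, and 0.0908 without attachment replicate 3). On low-attachment plates in normal medium 6 of 11 fell and 0 rose (median −0.46, against 0.0077 for all genes), led by LIF (1.90-fold, adjusted p = 0.00421), BCL3 (1.64-fold, 0.00289), JAK2 (1.61-fold, 0.0222) and OSMR (1.60-fold, 0.0084). OSMR did not pass there without attachment replicate 2 (adjusted p = 0.0928), nor JAK2 without attachment replicate 2 or 3 (up to 0.158). The number that fell was 4 with FP001 without attachment replicate 3, and 3 in normal medium without attachment replicate 2 or 3. STAT3 did not pass in normal medium (−0.35 ± 0.12, adjusted p = 0.0935). IL6R, the receptor gene for IL-6 itself, lay on the other side (0.51 ± 0.18 with FP001 and 0.56 ± 0.18 in normal medium) and did not pass (adjusted p = 0.0667 and 0.0702). With the replicate block, and with quantile normalization, 1 gene of the list was called higher in each comparison with attachment plates. The IL-6 gene and its receptor subunit IL6ST were not named on the array here.

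**Figure D4:**
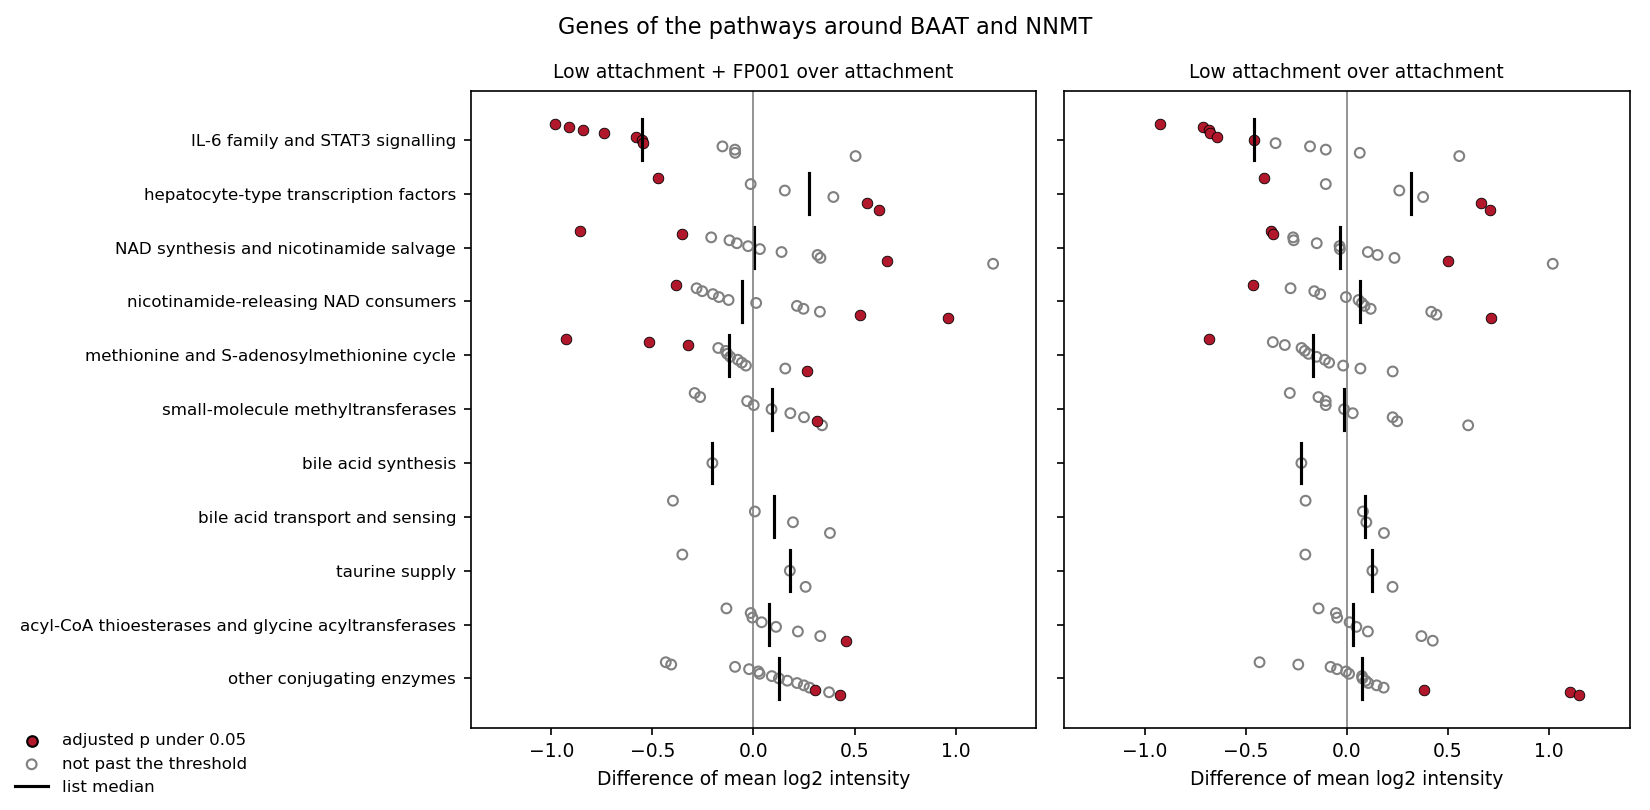
Differences of mean log2 intensity for the tested genes of 11 lists around BAAT and NNMT, with FP001 over attachment (left) and low attachment over attachment (right); red points passed an adjusted p of 0.05 and bars are list medians. The IL-6 and STAT3 list has 7 and 6 red points, all below 0, and a median of −0.55 and −0.46, while the other lists have 3 or fewer calls in either direction.

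The enzymes that make and recycle NAD from nicotinamide, the substrate of NNMT, did not move together. With FP001 1 of 12 tested genes rose and 2 fell (median 0.0026), and in normal medium 1 rose and 2 fell (median −0.035). NADK, which phosphorylates NAD, rose 1.58-fold with FP001 (adjusted p = 0.00674, and 0.0586 without attachment replicate 3) and QPRT, of NAD synthesis from tryptophan, fell 1.82-fold (adjusted p = 0.0195, and up to 0.166 without attachment replicate 2 or FP001 replicate 1). The other fall with FP001 was of NADK2 (1.28-fold, adjusted p = 0.0291), lost without FP001 replicate 1 or 2. In normal medium NADK rose 1.415-fold (adjusted p = 0.0331), NADK2 fell 1.30-fold (0.0339) and NMNAT1 fell 1.29-fold (0.0469). Each of these calls in normal medium was lost without any 1 low-attachment array. With quantile normalization 0 genes of the list were called lower there. NAMPT, the salvage enzyme that competes with NNMT for nicotinamide, is given although it was chosen after its values were seen. It read 941, 2297 and 1659 with FP001, against 762, 1905 and 1748 on low-attachment plates and 449 and 1008 on attachment plates. Its ranges overlapped and its log2 difference with FP001 did not pass (1.19 ± 0.46, adjusted p = 0.0916). The NAMPT probe set (16713318) lies in identifier order between those of ADK (16706238) and NADSYN1 (16728442), genes of other chromosomes than NAMPT. Whether it reads NAMPT or a similar sequence elsewhere was not tested.

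Among enzymes that break down NAD and so release nicotinamide, CD38 read 463, 397 and 449 with FP001, against 406, 343 and 353 on low-attachment plates and 257 and 195 on attachment plates. CD38, an NAD glycohydrolase, rose 1.95-fold with FP001 (log2 difference 0.96 ± 0.13, adjusted p = 0.0011), a call that held whichever array was left out. In normal medium it rose 1.64-fold (adjusted p = 0.00761, and 0.071 without attachment replicate 3). Of 12 tested genes of this list, 2 rose and 1 fell with FP001 (median −0.055) and 1 rose and 1 fell in normal medium (median 0.066). The other rise with FP001, of the NAD glycohydrolase gene BST1 (1.44-fold, adjusted p = 0.0407), held in 2 of 8 fits that left out 1 array, those without low-attachment replicate 1 or FP001 replicate 2 (adjusted p up to 0.166 in the rest). The poly(ADP-ribose) polymerase gene PARP2 fell 1.31-fold with FP001 and 1.38-fold in normal medium (adjusted p = 0.0233 and 0.0165), and neither call held without attachment replicate 2 or 3, nor that with FP001 without FP001 replicate 1 or 2 (up to 0.132). None of the tested sirtuin genes (SIRT1 to SIRT7), which use NAD to remove acyl groups, passed in either comparison (limma), and the widest differences with FP001 were 0.33 for SIRT2 and −0.28 for SIRT1.

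The supply of S-adenosylmethionine, the methyl donor of NNMT, was covered by 12 tested genes. With FP001 1 rose and 3 fell (median −0.12), and in normal medium 0 rose and 1 fell (median −0.17). The rise was of ADK (1.20-fold, adjusted p = 0.0341), and AHCYL2 was among the falls (1.25-fold, adjusted p = 0.0483). Both of these calls were lost without any 1 of the FP001 arrays. CTH splits cystathionine, which is made from homocysteine, to give cysteine. It read 39.8, 36.9 and 38.03 with FP001, against 43.3, 45.3 and 47.4 on low-attachment plates and 81.9 and 64.5 on attachment plates. It fell 1.90-fold with FP001 (adjusted p = 0.000954), whichever array was left out, and 1.61-fold in normal medium (adjusted p = 0.00672, and 0.0759 without attachment replicate 2). MTRR, which reactivates methionine synthase, fell 1.43-fold with FP001 (adjusted p = 0.0141, and 0.108 without attachment replicate 2). The genes of S-adenosylmethionine synthesis (MAT1A, MAT2A and MAT2B) were not named on the array here. Of 9 other small-molecule methyltransferase genes, 1 rose with FP001 and 0 passed in normal medium. This was the alkyl thiol methyltransferase gene TMT1B, up 1.24-fold (adjusted p = 0.0299, and up to 0.122 without FP001 replicate 1, attachment replicate 2 or attachment replicate 3). Its list's median was 0.089 with FP001 and −0.013 in normal medium. The log2 differences of these 9 genes lay between −0.29 and 0.34 with FP001 and between −0.28 and 0.60 in normal medium. In each comparison 3 of 9 had an unadjusted p under 0.05 (limma), against 35.1% and 26.4% of all genes. NNMT had been chosen with its values known, so its larger difference beside these is a description.

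Most of the pathway of BAAT could not be read. Of 15 bile acid synthesis genes 1 was named and tested, HSD17B4, a peroxisomal enzyme of side-chain shortening, with log2 differences of −0.20 ± 0.07 with FP001 and −0.22 ± 0.07 in normal medium (adjusted p = 0.0771 and 0.0806). Of 18 genes of bile acid transport and sensing 4 were tested and 0 passed in either comparison. Among them SLC51B, a subunit of a bile acid exporter, differed by −0.40 ± 0.18 with FP001 (adjusted p = 0.149). Of 6 genes that supply taurine 3 were tested and 0 passed, with ADO, an oxidase that makes hypotaurine, at 0.18 ± 0.11 (adjusted p = 0.253). BAAT belongs to a family with the acyl-CoA thioesterases ACOT1, ACOT2, ACOT4 and ACOT6. Of 14 acyl-CoA thioesterase and glycine acyltransferase genes 8 were tested, and ACOT11 alone rose with FP001 (1.37-fold, adjusted p = 0.0343, and up to 0.209 without any 1 of the FP001 arrays or of the attachment arrays). In normal medium 0 passed (2 at an unadjusted p under 0.05). In the family of BAAT, the log2 difference with FP001 was −0.014 ± 0.15 for ACOT1, −0.13 ± 0.10 for ACOT2 and 0.040 ± 0.15 for ACOT6.

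Of 36 other conjugating enzymes, 15 were tested. With FP001 2 rose and 0 fell (median 0.13), the glutathione transferase genes GSTO1 (1.34-fold, adjusted p = 0.0231) and MGST2 (1.24-fold, adjusted p = 0.0439), calls that held in 4 and 1 of the 8 fits with 1 array left out. In normal medium 3 rose and 0 fell (median 0.077). The glutathione transferase genes GSTA1 and GSTA2, which are near-identical copies that probes may not tell apart, went the other way from BAAT and NNMT in normal medium. GSTA1 read 76.2, 69.3 and 60.1 with FP001, against 172, 113 and 103 on low-attachment plates and 55.0 and 62.8 on attachment plates. It rose 2.15-fold in normal medium against attachment (adjusted p = 0.00667, and 0.0729 without attachment replicate 2), and GSTA2 rose 2.22-fold (adjusted p = 0.0249, and up to 0.18 without attachment replicate 2, attachment replicate 3 or low-attachment replicate 1). With FP001 neither passed against attachment. Between FP001 and normal medium, 0 of 93 list genes passed (13 at an unadjusted p under 0.05, where 11.6% of all genes had one), and 12 of 10916 genes were called in all. With the replicate number as a block 142 genes were called, among them GSTA1 (log2 difference −0.89 ± 0.12, adjusted p = 0.00499) and GSTA2 (−0.77 ± 0.10, adjusted p = 0.0051) as lower with FP001. The pairing behind that block was taken from these same arrays.

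Because BAAT is a liver enzyme, liver-type factors and markers were set beside it. Of 17 hepatocyte-type transcription factor genes 6 were tested, and with FP001 2 rose and 1 fell, as in normal medium. FOXA1, a pioneer factor, rose 1.48-fold with FP001 and 1.58-fold in normal medium (adjusted p = 0.0151 and 0.0111), and its relative FOXA2 fell 1.39-fold and 1.33-fold (adjusted p = 0.00587 and 0.0175). The other rise was of PPARA, a fatty acid sensor (1.54-fold and 1.63-fold, adjusted p = 0.026 and 0.0226), and neither of its calls held without attachment replicate 2 or 3. Its call with FP001 was also lost without FP001 replicate 1 or 3, and that in normal medium without low-attachment replicate 1. Without attachment replicate 2 none of the 4 FOXA calls held (adjusted p between 0.0646 and 0.132), and without attachment replicate 3 only that of FOXA2 with FP001 did. HNF4A and NR1H4, which encodes the bile acid receptor, were not named on the array here. Of 9 tested hepatocyte markers, 3 rose and 1 fell with FP001, and 3 rose and 0 fell in normal medium (8.08% and 11.4%, and 4.31% and 5.76%, of all genes). The rises were of TAT, APOH and TTR in both comparisons. TTR rose 1.47-fold with FP001 and 1.52-fold in normal medium (adjusted p = 0.0163 and 0.0184). These TTR calls held in 7 and 5 of the 8 fits with 1 array left out. The amino acid enzyme gene TAT rose 2.91-fold with FP001 (adjusted p = 0.00255) and 3.05-fold in normal medium (adjusted p = 0.00354), whichever array was left out. The plasma protein gene APOH read 2603, 1690.4 and 1739 with FP001, against 3165, 2116 and 2442 on low-attachment plates and 1327 and 803 on attachment plates. It rose 1.91-fold with FP001 (adjusted p = 0.0227, and up to 0.181 without attachment replicate 3 or FP001 replicate 1). The fibrinogen chain gene FGA fell 1.70-fold with FP001 (adjusted p = 0.00753, and 0.0762 without attachment replicate 2). The other tested markers did not pass. With FP001 TF differed by −0.97 ± 0.31 (adjusted p = 0.0523), FGB by −0.60 ± 0.32 and ASGR1 by −0.25 ± 0.11. AHSG differed by 0.26 ± 0.14 and APOA1 by 0.14 ± 0.13. In normal medium TF differed by 0.37 ± 0.31, and between FP001 and normal medium by −1.34 ± 0.28 (adjusted p = 0.139). ALB and APOB, defining markers of hepatocytes, were too dim to test.

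The labelled cell type and other cell types were checked by markers. Of 14 A549 and lung epithelial markers 9 were named, and their summed intensity was 4786 to 5181 with FP001, 4238 to 4373 on low-attachment plates and 4108 to 4318 on attachment plates. Most of each sum was the probe set named for the epithelial keratin gene KRT18 (4288 to 4579 with FP001, 3640.1 to 3770.5 on low-attachment plates, and 3478 and 3705 on attachment plates), so the sums say little of the other markers. This probe set (16938654) lies far in identifier order from that of KRT7 (16751491), a gene of the same chromosome as KRT18. Which locus it reads is not settled here. With FP001 1 of 8 tested markers rose and 1 fell, and in normal medium 0 rose and 1 fell. KRT18 rose 1.23-fold with FP001 (adjusted p = 0.00917, and 0.0894 without attachment replicate 2). EPCAM, an epithelial adhesion gene, fell 1.44-fold with FP001 (adjusted p = 0.042), a call that held in 2 of 8 fits with 1 array left out, those without FP001 replicate 1 or low-attachment replicate 1 (up to 0.252 in the rest). The keratin gene KRT7 fell 1.45-fold in normal medium (adjusted p = 0.0422), which held in 3 of 8, those without low-attachment replicate 3, FP001 replicate 1 or FP001 replicate 2 (up to 0.215 in the rest). The surfactant gene SFTPA1 lay under the median on all 8 arrays. For fibroblasts, in which NNMT is also known, 3 of 10 markers were named, with a summed intensity of 134 to 493 with FP001, 80.4 to 313 on low-attachment plates and 109.7 to 169.7 on attachment plates. DCN lay under the median on all 8 arrays, and THY1 fell 1.42-fold with FP001 (adjusted p = 0.0115, and up to 0.0754 without attachment replicate 2 or 3). The other tested fibroblast marker, LUM, differed by 1.57 ± 0.94 with FP001 and 0.29 ± 0.94 in normal medium and did not pass (adjusted p = 0.256 and 0.872). The part of these markers in the NNMT difference was not tested. The lysozyme gene LYZ, a leukocyte marker that airway epithelium also makes, read 175, 69.8 and 107 with FP001, against 133, 61.5 and 78.0 on low-attachment plates and 18.6 and 17.5 on attachment plates. It rose 6.07-fold with FP001 (adjusted p = 0.00124) and 4.78-fold in normal medium (0.00414), whichever array was left out. Of 3 tested leukocyte markers, 2 rose with FP001 and 1 in normal medium, and 0 fell. The other rise with FP001 was of CD68, which read 627, 444 and 468 there. It read 511, 356 and 393 on low-attachment plates, and 321 and 286 on attachment plates. CD68 rose 1.67-fold with FP001 (adjusted p = 0.0146), a call that held in 6 of the 8 fits with 1 array left out. Of 8 leukocyte markers 4 were named (629 to 960.4 with FP001, 565 to 797 on low-attachment plates and 432 to 509 on attachment plates), and of 6 endothelial ones 4 (108 to 136, 96.4 to 116 and 87.1 to 99.1 in the same order).

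The protein-coding genes next to BAAT and NNMT were read as a check of position. Of the 3 on each side, 3 around BAAT and 1 around NNMT were tested. Among all genes tested, 11.4% were called lower with FP001 and 5.76% in normal medium. RBM7, which lies 87130 bases after NNMT and encodes an RNA-binding protein of the nuclear exosome, read 81.2, 71.2 and 84.7 with FP001, against 77.5, 71.8 and 79.5 on low-attachment plates and 155 and 121 on attachment plates. It fell 1.74-fold with FP001 (adjusted p = 0.00231) and 1.80-fold in normal medium (adjusted p = 0.00302), whichever array was left out. ZNF189, a zinc finger gene 13845 bases after BAAT, fell 1.83-fold with FP001 (adjusted p = 0.00411, and 0.0568 without attachment replicate 2). MRPL50, a mitochondrial ribosomal protein gene 2627 bases after BAAT, fell 1.30-fold with FP001 (adjusted p = 0.036). In normal medium neither ZNF189 (−0.51 ± 0.15, adjusted p = 0.0597) nor MRPL50 (−0.32 ± 0.11, adjusted p = 0.0899) passed. The MRPL50 call was lost without attachment replicate 2, low-attachment replicate 3 or any 1 FP001 array (adjusted p up to 0.292). PLPPR1, on the other side of BAAT, did not pass in either comparison (−0.0059 ± 0.25 with FP001 and 0.37 ± 0.25 in normal medium). ZBTB16, which ends 1036 bases before NNMT, was too dim to test.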

How the data were processed

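The authors deposited 1 linear intensity for each probe set on each array. The submitters' processing notes name MAS5 as the tool; for its settings, the annotation and the genome build the sources used here give nothing. The RNA was labelled with biotin through a 3' in vitro transcription kit, per the labels' protocols. What was computed here starts from log2 of these intensities, with no pseudocount and no further scaling. Columns were matched to samples by accession and groups came from the titles. Names came from the platform annotation, updated through RefSeq gene identifiers (all 16098 named probe sets matched, for 14884 genes).

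A probe set was tested where it was at or above its array's median on at least 3 of 8 arrays, and the one with the highest mean stood for its gene (10916 genes). A gene that reached the median only on the 2 attachment arrays was therefore not tested. A gene that reached it on low-attachment arrays alone could be. Group means were fitted with limma 3.58.1 in R 4.3.3 (eBayes with a trend, 5 residual and 5.6 prior degrees of freedom), tests were two-sided, and p-values were adjusted with Benjamini-Hochberg over all genes. The labels do not tell whether replicates were separate cultures. The p-values therefore cover the spread between these arrays alone, possibly a technical one, and the number of arrays limits precision.

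The members and lists were chosen with earlier results of these data known. Genes were named by a rule: up to 4 called members of a list with the largest change, the brightest tested member of a list with no call, the 5 nearest profiles, and the 3 protein-coding neighbours on each side. STAT3, SOCS3, JAK1, IL6R, LUM, NAMPT, SIRT1, SIRT2 and ACOT1, ACOT2 and ACOT6 fall outside it and were named after their values were seen. So were TF, FGB, ASGR1, AHSG and APOA1. Same-numbered arrays of the 2 low-attachment groups had deviations from their group means that correlated at 0.483, 0.309 and 0.231 over genes. Arrays of different numbers in these groups correlated at −0.353 to 0.133, the highest for FP001 replicate 3 and low-attachment replicate 2. The numbers were taken to pair same-numbered arrays, and nothing in the labels says why. For FP001 and attachment arrays the same-number correlations were −0.256 and 0.0076, and for low-attachment and attachment arrays −0.205 and 0.138, so no pairing was taken there. Alternatives were all 9 arrays, the block, quantile normalization, a pseudocount of 16, other filters, another probe set per gene, no trend, and leaving out each array. One searched promoter motif is not reported here.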

Additional observations from a re-analysis of the deposited data

How the results depend on the processing

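All values here are log2 differences or counts of genes, with FP001 or in normal medium on low-attachment plates, against attachment plates unless stated. With all 9 arrays, which returned the left-out attachment array, BAAT turned to 0.26 with FP001 and 0.53 in normal medium, the NNMT main probe set moved to −0.84 and −0.30, and the second to −0.25 and 0.17. That fit called 0 genes in each of the 3 comparisons, 0 of them on the pathway lists, and shifted the median of all genes by 0.67 and 0.69. It also reversed called genes with FP001 (AHCYL2 1.29, BCL3 0.26, CTH 0.51, FGA 2.07, FOXA1 −1.02, JAK1 0.91, JAK2 0.71, MRPL50 0.72, MTRR 0.088, NADK2 0.83, OSMR 0.41, PPARA −0.89, RBM7 0.087, SOCS3 1.02, STAT3 2.07, THY1 0.74 and ZNF189 0.36) and in normal medium (BCL3 0.46, CTH 0.76, FOXA1 −0.92, JAK1 0.996, JAK2 0.87, KRT7 1.38, NADK2 0.80, OSMR 0.72, PPARA −0.80, RBM7 0.038, SOCS3 0.95 and THY1 0.80). A pseudocount of 16 gave −1.87 for the NNMT main probe set with FP001, and −1.43 and −1.10 for the second. Between FP001 and normal medium, 0 genes were called with no trend, and 142 with the replicate block, of which 2 were on the pathway lists. Leaving out 1 array at a time, BAAT ranged over −2.11 to −1.66, −1.86 to −1.39 and, between FP001 and normal medium, −0.476 to −0.0294. The NNMT main probe set ranged over −2.38 to −1.94, −1.83 to −1.39 and −0.65 to −0.46, and the second over −1.85 to −1.61, −1.42 to −1.18 and −0.47 to −0.36. Genes called numbered 660 (without attachment replicate 2) to 2305 with FP001, 362 (without attachment replicate 2) to 1301 in normal medium, and 0 (without any 1 FP001 array) to 11 between these. Pathway genes called numbered 8 to 26, 5 to 21 and 0 to 0. The causes of these changes were not tested.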
